A study of Mus musculus with 18 samples.

Results

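The cytosolic ribosome of mammals is built from ribosomal RNA and a set of ribosomal proteins, named Rpl in the large (60S) subunit and Rps in the small (40S) subunit. Their messenger RNAs (mRNAs) are among the most abundant of most cells and are made in balance. Many begin with a C followed by a run of pyrimidines (a terminal oligopyrimidine, or TOP, start), through which the kinase complex mTORC1 and the RNA-binding protein Larp1 set their translation, and several serve as reference genes in quantitative PCR (qPCR). The 76 genes described here are the rows of the count table whose Ensembl identifier belongs to a protein-coding gene named Rpl or Rps with a number and at most an a or x, together with Rpsa, Rplp0, Rplp1 and Rplp2. They comprise 46 genes of the 60S and 30 of the 40S subunit, out of 16452 genes measured. Rps3a1 and Fau also encode ribosomal proteins but fall outside this naming rule.

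The tissue was epididymal white adipose tissue (eWAT), the fat pad attached to the epididymis, from wild-type C57BL/6 male mice of a generation labelled Fm. Zygotes had been microinjected with the microRNA let-7d, with let-7e or with a negative control, and all groups carry the treatment labels of in vitro fertilisation (IVF_Let7d, IVF_Let7e, IVF_NegativeControl). All mice ate chow from weaning to 6 weeks and then the diet labelled LFD until 15 weeks, while the age label reads 24 weeks. The count table gave 5 control, 6 let-7d and 6 let-7e libraries; control replicate 5 is not analysed here. The labels do not state that each library is a separate animal, so p-values measure the spread between these libraries, which may be technical. In 4 libraries (let-7d 1 and 2, let-7e 1 and 2) the sample identifier is a plain number, and in the other 13 it starts with a letter. These sets are called early and late here after their identifiers; the labels give no dates, and no control is early.

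Total counts ran from 12717365 to 28972306 per library. The 15 adipocyte markers averaged between 10.96 and 11.89 log2 CPM (counts scaled to the library total), so the labelled tissue was present in every library. Control 3 held smooth muscle and vas deferens transcripts (mean 10.83 log2 CPM, against at most 3.51 elsewhere) and control 6 spermatid transcripts (7.33). Epithelial transcripts stood out in let-7d 1, let-7d 5 and control 3 (6.08, 4.90 and 4.69), against at most 2.55 elsewhere. In whole tissue, fewer cells of a type and less RNA per cell cannot be told apart.

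Both injected microRNAs share the let-7 seed, bases 2 to 8, which pairs with target mRNAs. The mature sequences (RefSeq, GRCm38.p6) lie at chr13:48536078-48536099 on the minus strand for let-7d and chr17:17830366-17830387 on the plus strand for let-7e, and capitals mark the seed.
mmu-let-7d-5p: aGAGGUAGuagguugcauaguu
mmu-let-7e-5p: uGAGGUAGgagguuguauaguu
The complement of that seed, CTACCTC, was present on the sense strand in the annotated transcripts of 4 of the 76 ribosomal protein genes (5.26%). Among 9555 other measured protein-coding genes with transcripts of the same range of lengths, 16.15% held it. The 2 sets were matched on that range alone, and their median transcript lengths were 705 and 2119 bases. Per 100 kb of transcript there were 6.34 matches in the 76 genes and 8.5 in the others. The sites of 3 ribosomal protein genes are shown with their flanks because they are the letters through which a let-7 microRNA could pair, with the match in capitals.
Rpl27a: ccccgcgcctgCTACCTCgcgagacttcgt
Rpl3: attggtcaaggCTACCTCatcaaggatggc
Rps13: tgtgccgtttcCTACCTCgttctctctttg
The matches of Rpl27a (chr7:109519169-109519175 in GRCm38, plus strand, exon 1) and Rps13 (chr7:116334139-116334145, minus strand, exon 1) lay in the 5′ untranslated region of the GENCODE transcript. That of Rpl3 lay in coding sequence (chr15:80078782-80078788, minus strand, exon 7 of 10). The RefSeq start of Rpl27a differed from the GENCODE start by 48 bases. By that RefSeq start, the Rpl27a match lay before the transcript began. A match of letters is a description and not a shown binding site.

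The start regions of the genes were compared because a shared start is the best-known feature of the family. RefSeq promoters of 300 bases matched 56 of the 76 genes. A C followed by at least 4 pyrimidines within 10 bases of the start stood in 29 of them (51.79%) and in 32.13% of 11050 other measured genes. The letters CGGAAG on either strand stood in 67.86% against 29.65%, and ATGGCG in 26.79% against 14.76%. The palindrome CACGTG (8.93% against 9.85%) and TATAAA (8.93% against 7.62%) had similar shares in both sets. The windows below run from 30 bases before to 10 bases after the RefSeq start, on the gene's strand, for named genes that hold such a run, in capitals, and for 3 genes of the comparisons that hold none.
Rps6: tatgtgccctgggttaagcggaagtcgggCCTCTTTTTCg
Rps18: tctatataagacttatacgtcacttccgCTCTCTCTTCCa
Rps21: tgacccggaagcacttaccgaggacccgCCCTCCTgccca
Rps27: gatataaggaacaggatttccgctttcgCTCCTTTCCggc
Rplp2: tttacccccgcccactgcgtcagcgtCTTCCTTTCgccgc
Rpl15: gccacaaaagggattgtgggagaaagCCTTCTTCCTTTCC
Rpl41: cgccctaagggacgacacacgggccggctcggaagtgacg
Rpl35a: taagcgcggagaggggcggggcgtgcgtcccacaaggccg
Rps13: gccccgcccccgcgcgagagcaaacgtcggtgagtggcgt
The windows are, in GRCm38.p6, chr4:86857358-86857397 (Rps6, minus), chr17:33955656-33955695 (Rps18, minus), chr2:180257349-180257388 (Rps21, plus), chr3:90213639-90213678 (Rps27, minus), chr7:141447621-141447660 (Rplp2, plus), chr14:18270977-18271016 (Rpl15, minus), chr10:128549159-128549198 (Rpl41, minus), chr16:33056423-33056462 (Rpl35a, plus) and chr7:116334181-116334220 (Rps13, minus). The RefSeq start and that of the GENCODE transcript used here differed by 45 bases for Rps6 and 61 for Rplp2, and by at most 16 for the others shown. A missing run therefore says only that these letters are not beside this annotated start.

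The share of all counts that fell on the 76 genes was small, and its mean was highest with let-7d and lowest with let-7e. It was 1.18%, 1.43%, 1.37%, 1.14% and 1.48% in controls 1, 2, 3, 4 and 6 (mean 1.32% ± 0.149, SD, n = 5). In the let-7d libraries the lowest, median and highest shares were 1.32%, 1.41% and 1.64% (mean 1.45% ± 0.117, n = 6), and in the let-7e libraries 1.06%, 1.29% and 1.37% (1.25% ± 0.125, n = 6). The let-7d and let-7e ranges overlapped, and the controls, at 1.14% to 1.48%, overlapped both. The 40S genes took 0.731 to 0.773 times as many scaled counts as the 60S genes in every library, and the balance of the subunits varied little.

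After scaling for library composition (TMM), the mean log2 CPM of the 76 genes was 7.16, 7.18, 7.04, 6.98 and 7.14 in controls 1, 2, 3, 4 and 6. The lowest, median and highest values were 7.02, 7.09 and 7.45 with let-7d and 6.83, 7.01 and 7.08 with let-7e. Library let-7d 4 stood above all others. All 76 genes lay above their own mean over the libraries there, by 0.13 to 0.58 log2 units with a median of 0.38, and 66 of the 76 genes reached their highest level in it. At the low end were let-7e 6, with the lowest level of 37 genes, and let-7e 2, with that of 27 genes. In let-7e 2 none of the 76 lay above its own mean, and in let-7e 6 only Rps2, Rplp0 and Rpl41 did. Without these 3 libraries, the level ran from 6.98 to 7.18 over the 3 groups.

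**Figure D1:**
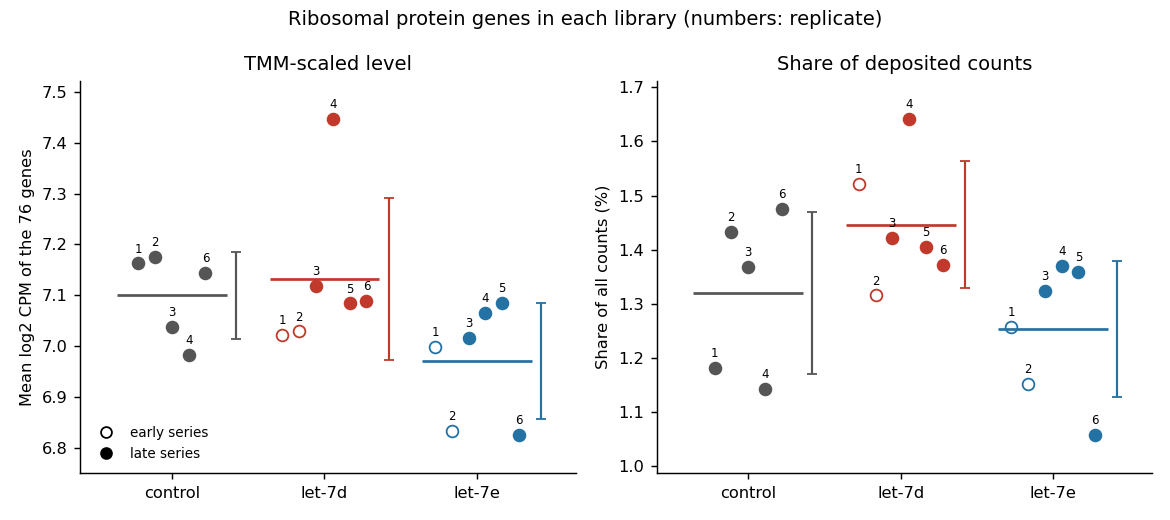
Level of the 76 ribosomal protein genes in each of 17 libraries, as mean log2 CPM after TMM scaling (left) and as share of all deposited counts in percent (right). Points are libraries numbered by replicate, open for the early series, lines are group means and bars are ± 1 SD. Library let-7d 4 is highest in both panels (7.45 and 1.64%) and let-7e 6 lowest (6.83 and 1.06%).

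Some other gene groups were also high in let-7d 4, the mitochondrial ribosome within the range of the other libraries. In let-7d 4 the 21 other TOP transcripts (elongation factors, Tpt1, Rack1 and others) averaged 7.92 log2 CPM against 7.53 to 7.76 in the other libraries, the translation initiation factors 6.80 against 6.48 to 6.74, and the mitochondrial ribosome, which is encoded by other genes, 5.38 against 4.80 to 5.40. The lymphocyte markers averaged 0.81 in let-7d 4 and 0.11 in let-7e 6, the lowest 2 values in a range reaching 2.74. The scaling factors of let-7d 4, let-7e 2 and let-7e 6 were 0.948, 1.01 and 0.909. The part of tissue composition or RNA quality in the level of these libraries was not tested.

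**Figure D2:**
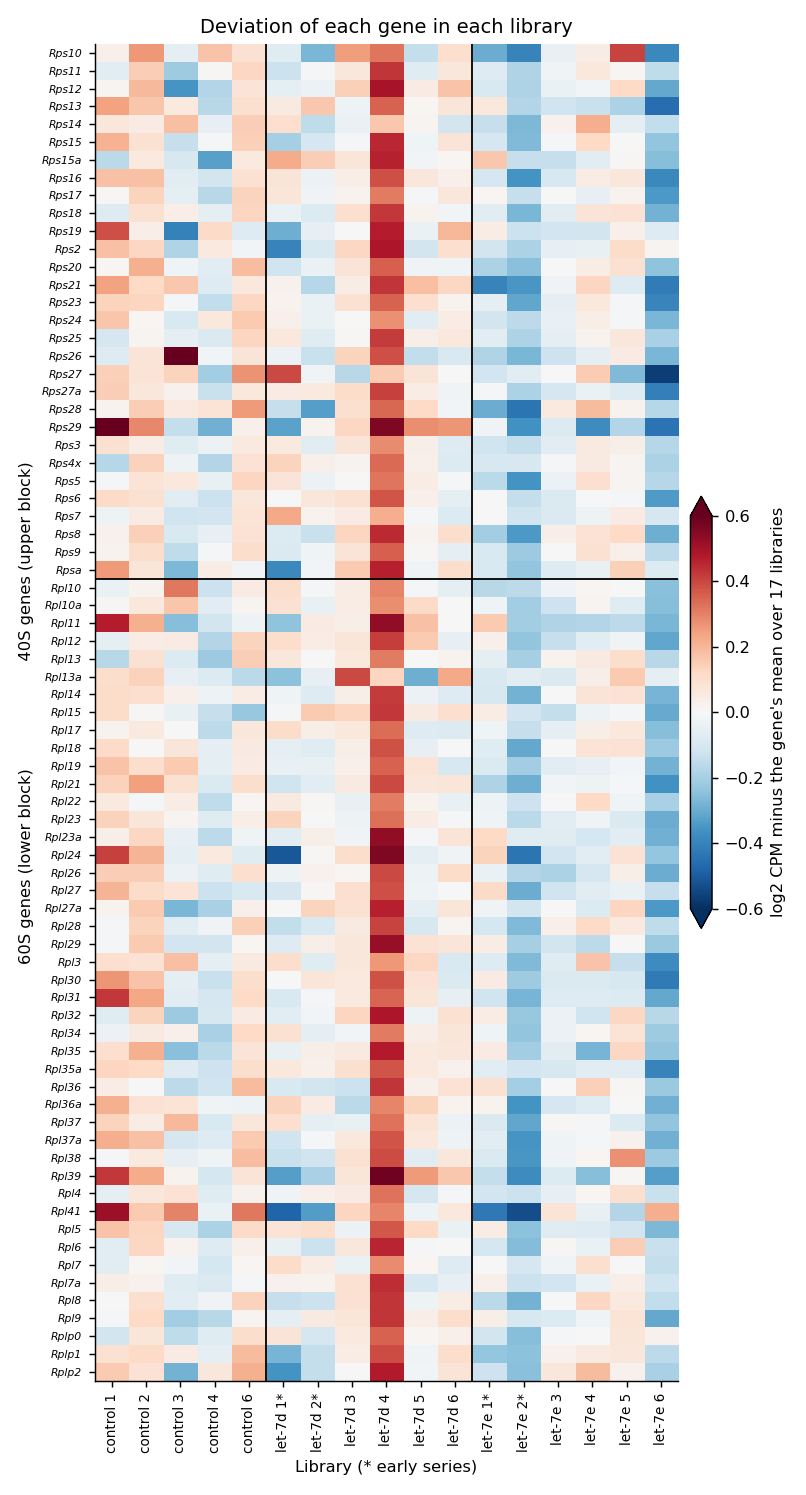
Deviation of 75 of the 76 genes (rows, 40S above 60S) in each library (columns, * early series), as log2 CPM minus the gene's mean over the 17 libraries, on a colour scale from -0.6 to 0.6. The column of let-7d 4 is above 0 in all rows and that of let-7e 2 below 0 in all rows, while Rps26 in control 3 (0.67) and Rps29 in control 1 (0.64) stand out as single cells.

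Levels among the genes were compared per kilobase (kb) of annotated transcript. The P-stalk proteins Rplp1 and Rplp2, which recruit elongation factors to the ribosome, led with means of 835 and 760 CPM per kb over the 17 libraries, followed by the 40S head protein Rps15 with 583. At the low end stood Rps10 (12.3 CPM per kb), a 40S head protein, Rpl13a (16.2) and Rpl24 (22.3), which belong to the 60S subunit. The median was 254 CPM per kb for 40S and 168 for 60S genes. Per kb of coding sequence alone, the shortest protein Rpl41 came first with 2187, ahead of Rplp1 with 1208, and Rpl24, Rpl13a and Rps10 were still the lowest 3. Many of these genes share sequence with other genes, among them their own pseudogenes. In 46 of the 76 genes over 50% of the 50-base windows of the transcript also occur in a transcript of another annotated gene. That share was 92.4% for Rps10, 81.7% for Rpl24 and 57.4% for Rpl13a, but also 65.1% for Rplp2. The median level was 267 CPM per kb for the 4 genes with up to 10% shared windows, 156 for 26 genes with 10% to 50% and 228 for the 46 above that. How the authors assigned reads that match several genes is not given in the sources used here, so the absolute level of each gene is uncertain.

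The 76 genes varied less between libraries than most genes. Their median SD of log2 CPM over 17 libraries was 0.166, against 0.228 for the 3902 genes whose mean reached 50 CPM, and 68 of the 76 lay below the latter value. Rpl7 (0.0996), Rps7 (0.107) and Rps3 (0.110) were the steadiest. Rps29 (0.324), Rpl41 (0.304) and Rpl39 (0.270), which encode very small proteins, varied most. Among 7 common qPCR references, Rplp0, a stalk protein, had an SD of 0.133 at 581 CPM, Rpl19 0.149, Rpl27 0.157, Rps18 0.161, Rpl32 0.170 and Rpl13a 0.174. Rps29, the seventh, spanned a 2.13-fold range between libraries and Rplp0 a 1.52-fold range.

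**Figure D3:**
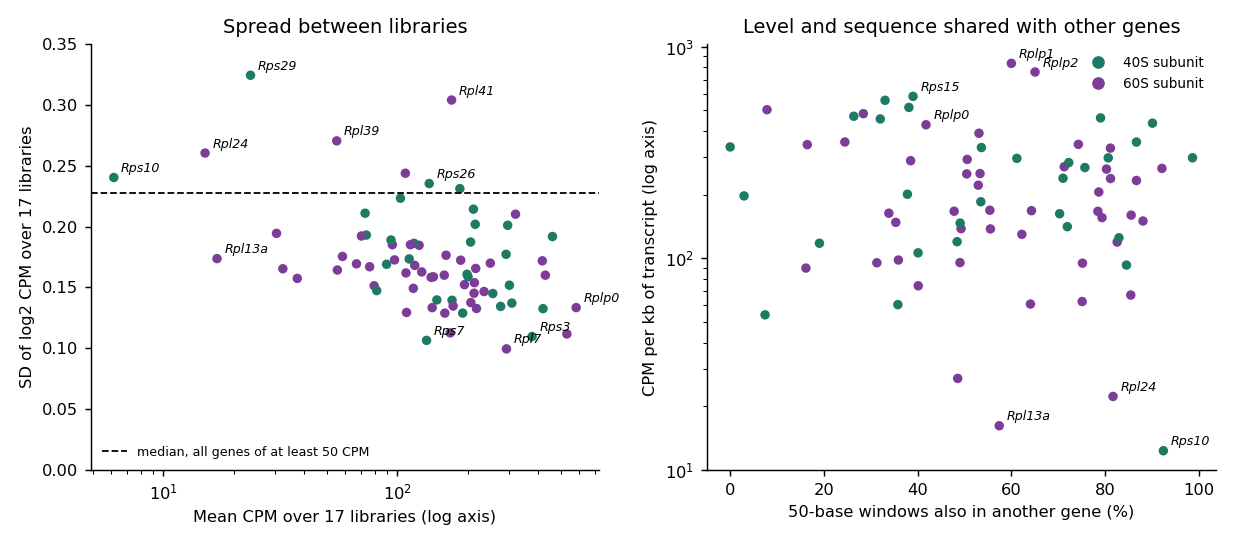
Left, SD of log2 CPM over the 17 libraries against mean CPM (log axis) for the 76 genes, coloured by subunit, with the median SD of all genes that reached 50 CPM as a dashed line (0.228). Right, CPM per kb of transcript (log axis) against the share of 50-base windows also found in another gene, where Rps10, Rpl13a and Rpl24 lie lowest.

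With let-7d against control, 67 of the 76 genes had a fold change above 0 and 9 below, with a median log2 fold change of 0.08, when 42.5% of all genes tested were above 0 with a median of -0.04. None passed the adjusted threshold of 0.05 (edgeR's quasi-likelihood test, Benjamini-Hochberg), which 0% of all genes passed. At an unadjusted p below 0.05 there was 1 of the 76, Rpl15, when 3.11% of all genes were higher and 7.08% lower at that level. Rpl15, a 60S core protein, had 81.6, 76.1, 73.3, 68.8 and 64.6 CPM in controls 1, 2, 3, 4 and 6, and 75.1, 82.0 and 101 CPM as lowest, median and highest of let-7d. The groups overlapped (log2 fold change 0.21 ± 0.09 SE, edgeR adjusted p = 0.477). The next smallest p-values among genes with a higher value belonged to the 40S proteins Rps15a (0.22 ± 0.10 SE) and Rps12 (0.23 ± 0.12 SE). Among genes with a lower value, the smallest p-values included those of Rps26 and Rpl41, neither of them below 0.05 before adjustment. Rps26, a protein at the mRNA exit channel, had 215 CPM in control 3 and 128 to 142 CPM in the other controls, and its log2 fold change of -0.09 became 0.08 without control 3. In 0 of the 76 genes did all let-7d libraries lie above or below all controls, as in 0.176% and 0.34% of all genes.

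The size of the median and the number of genes above 0 rested largely on let-7d 4. Without it, the median was 0.01 and 44 of 76 were above 0. With any other library left out, the median ran from 0.06 to 0.10, and between 0 and 5 genes had an unadjusted p below 0.05. The share of all genes at that level in these fits is not given here.

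With let-7e against control, 66 of the 76 genes had a fold change below 0 and 10 above, with a median of -0.08 against -0.04 over all genes, of which 58.1% were below 0. Again 0 of the 76 and 0% of all genes passed the adjusted threshold in edgeR. An unadjusted p below 0.05 was reached by 3 of the 76, all lower, when 7.99% of all genes were lower and 2.52% higher at that level. These were Rps13 (log2 fold change -0.28 ± 0.10 SE), a 40S protein, Rpl31 (-0.25 ± 0.10 SE) at the peptide exit tunnel, and Rpl41 (-0.23 ± 0.10 SE). Rps13 had 86.3, 82.0, 76.1, 65.2 and 78.2 CPM in controls 1, 2, 3, 4 and 6, and 53.2, 65.6 and 76.4 CPM as lowest, median and highest of let-7e. Controls 3 and 4 lay within the let-7e range (edgeR adjusted p = 0.376). On the other side, Rpl13a (0.05), Rplp0 (0.04) and Rpl13 (0.03) had the smallest p-values among the 10 genes above 0, and none differed from control beyond its SE. Without let-7e 6 the median was -0.02 with 29 genes above 0. Without let-7d 4, 12 genes had an unadjusted p below 0.05 in place of 3, and the number was 9 without control 4, 6 without let-7e 1 and 5 without let-7e 4. Library let-7d 4 enters this comparison through the shared spread, the shared series term and the scaling, and their parts were not tested. The share of all genes at that level with a library left out is not given here. With each library's trend in transcript length and GC content taken out, the median was -0.01 with 35 genes above 0. Both comparisons share the control libraries and so are not independent.

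Marker lists of cell types also differed from control. With let-7e the endothelial markers were higher in 10 of 10, 7 of them at an unadjusted p below 0.05 (mean level 6.64 to 7.21 log2 CPM, against 6.41 to 7.15 in the controls), and the adipocyte markers in 13 of 15 (11.62 to 11.89 against 11 to 11.84). The lymphocyte markers were lower in 19 of 21 (0.11 to 1.47 against 1.03 to 2.68). The spermatid markers (8 of 8) and the smooth muscle and vas deferens markers (9 of 9) were lower, all at an unadjusted p below 0.05, with control 6 and control 3 far above every other library. With let-7d, 13 of 14 macrophage and 9 of 10 endothelial markers were higher, none at that level, and 16 of 21 lymphocyte markers lower. The fibroblast markers were higher in 7 of 9 with each microRNA, 2 of them at that level. All 5 red cell transcripts and all 8 mRNAs of the mitochondrial genome were lower with each, none at that level. Over all genes, 7.99% were lower and 2.52% higher at that level with let-7e, and 7.08% lower and 3.11% higher with let-7d. Without the 4 libraries that held organ or epithelial transcripts, the median of the 76 was -0.06 with let-7e, with 20 genes above 0 and 4 at an unadjusted p below 0.05, and 0.11 with let-7d. For this fit the share of all genes at that level is not given. The part of the other markers in the ribosomal protein values was not tested.

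With let-7e against let-7d, all 76 genes had a fold change below 0, from -0.06 to -0.40 with a median of -0.16, when 53.1% of all genes were below 0 with a median of -0.01. An unadjusted p below 0.05 was reached by 24 of the 76 (31.6%), all lower, when 3.32% of all genes were lower and 3.35% higher at that level. None passed the adjusted threshold in edgeR, and 0% of all genes did. DESeq2 called 14 genes here, and 10 and 15 in the let-7d and let-7e comparisons with control. limma-voom called 0 in each, and none of the 76 was called by either tool. The median was -0.16 for both the 46 genes of the 60S and the 30 of the 40S subunit.

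The smallest p-values belonged to Rps21, Rps13 and Rpl35a. Rps21, a 40S protein whose start carries the pyrimidine run shown above, had 162, 194 and 246 CPM as lowest, median and highest of let-7d and 137, 158 and 200 CPM with let-7e, so the ranges overlapped (-0.29 ± 0.09 SE, edgeR adjusted p = 0.700). Rps13 had 71.5, 76.4 and 93.3 CPM with let-7d against 53.2, 65.6 and 76.4 with let-7e (-0.27 ± 0.09 SE, edgeR adjusted p = 0.700). Rpl35a, a 60S protein mutated in some patients with Diamond-Blackfan anaemia, had 110, 113 and 141 CPM with let-7d and 81.9, 102 and 104 CPM with let-7e. It was the 1 gene of the 76 whose let-7e libraries all lay below all let-7d libraries (-0.24 ± 0.08 SE, edgeR adjusted p = 0.700), as did 0.103% of all genes. The controls, at 118, 117, 102, 99.4 and 116 CPM, lay across both ranges. The lowest fold change belonged to Rps29 (-0.40 ± 0.16 SE), which is also the most variable of the 76.

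By role, the 5S RNP proteins Rpl5 and Rpl11, which also bind Mdm2 when ribosome assembly fails, had log2 fold changes of -0.22 and -0.24. Of the 9 exit tunnel proteins 4 reached an unadjusted p below 0.05, of the 10 head proteins of the 40S subunit 2, of the 9 genes mutated in Diamond-Blackfan anaemia 2 and of the 3 P-stalk proteins 0. Over all genes, 3.32% were lower and 3.35% higher at that level, and of the 76 31.6% were lower. Rps6, the S6 kinase substrate, had -0.18, Rps27a, which is made as a fusion with ubiquitin, -0.25, Rps19 -0.12, Rps4x -0.14, Rpl22 -0.10, Rps18 -0.16, Rpsa -0.12, Rplp0 -0.12 and Rpl13a -0.06. Among the genes with a let-7 seed match, Rps13 had -0.27, Rpl27a -0.19 and Rpl3 -0.19.

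**Figure D4:**
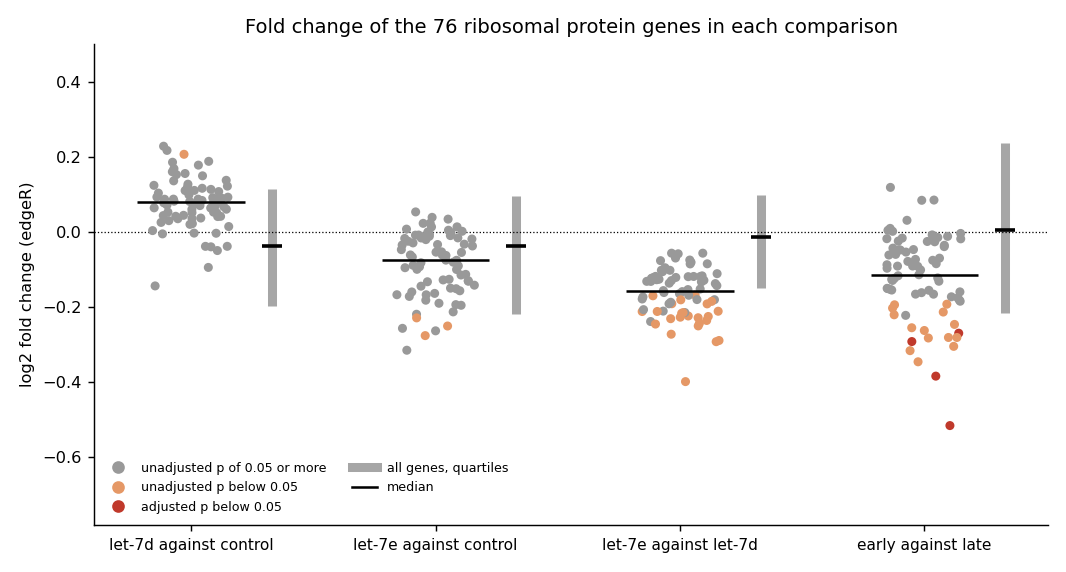
Log2 fold change of each of the 76 ribosomal protein genes in the 4 comparisons (points, edgeR), coloured by unadjusted and adjusted p, with the median of the 76 as a line. The grey bar and tick at the right of each column give the quartiles and median of all 16452 genes. All 76 points lie below 0 for let-7e against let-7d, and the 4 points called at an adjusted p below 0.05 are in early against late.

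This difference rested on few libraries. Without let-7d 4 the median was -0.10 and 11 genes had an unadjusted p below 0.05. Without let-7e 2 the number was 14, and without let-7e 6 it was 15. With all 3 left out, an alternative chosen after seeing the data, the median was -0.05, 15 genes were above 0 and 0 had an unadjusted p below 0.05. With the length and GC trend taken out, the median was -0.11 and 17 genes had such a p. Marker lists also differed between these groups. The epithelial markers were lower with let-7e in 9 of 9 (mean level -1.49 to 2.55 log2 CPM, against -1.02 to 6.08 with let-7d), the lymphocyte markers in 20 of 21 (0.11 to 1.47 against 0.81 to 2.74), and 12 of 15 adipocyte markers were higher (11.62 to 11.89 against 10.96 to 11.86). Without the libraries that held epithelial or organ transcripts (let-7d 1, let-7d 5, control 3 and control 6) the median of the 76 was -0.17, with 24 genes at an unadjusted p below 0.05. For the alternatives in this paragraph the share of all genes at that level is not given, so the counts cannot be set against it.

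Lists of other genes of translation had medians nearer 0. For let-7e against let-7d, 15 of 21 other TOP transcripts were below 0 (median -0.06), with 1 at an unadjusted p below 0.05, the ribosomal scaffold Rack1 (-0.17 ± 0.08 SE). Eef1a1, the elongation factor that delivers transfer RNA, had -0.06 and Tpt1 -0.13. Of 37 ribosome biogenesis genes 24 were below 0 (median -0.03), with Snu13 (-0.19) and Rrs1 (0.26) at an unadjusted p below 0.05. Among 27 initiation factors 10 were below 0 (median 0.03), led by Eif4e (-0.18) and Eif2b5 (0.11). Of 21 mTORC1 and TOP regulators 8 were below 0 (median 0.03), with Larp1 at 0.07, Myc at 0.04 and Tsc2 (0.19) and Rptor (0.13) of smallest p. Of 77 mitochondrial ribosome genes 51 were below 0 (median -0.04), led by Mrpl45 (0.15) and Mrpl47 (-0.23). The ribosomal protein genes outside the naming rule mostly shared the direction of the 76, with Fau at -0.13 and 7 of 8 measured below 0 (median -0.13). Of these 8 genes, 0 had an unadjusted p below 0.05. At an unadjusted p below 0.05, 3.32% of all genes were lower and 3.35% higher. The difference between these lists and the 76 was not tested.

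Against control, the same lists also held no gene past the adjusted threshold. Counts at an unadjusted p below 0.05 are to be read against all genes, of which 7.08% were lower and 3.11% higher at that level with let-7d, and 7.99% lower and 2.52% higher with let-7e. With let-7d these were 4 of 27 initiation factors, all lower and led by Eif3g (-0.25) and Eif5b (-0.22), and 1 of 21 other TOP transcripts (Eef1g, 0.31), 1 of 37 biogenesis genes (Rrs1, -0.28), 1 of 21 regulators (Tsc1, -0.15) and 1 of 77 mitochondrial ribosome genes (Mrpl1, -0.25). With let-7e they were 2 of 37 biogenesis genes (Polr1c, -0.24, and Rrp12, -0.34) and 1 of 77 mitochondrial ribosome genes (Mrpl39, -0.32).

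Early against late gave the only adjusted calls in edgeR. This coefficient rests on let-7d and let-7e libraries, 2 early and 4 late in each group. Of the 76 genes 69 had a fold change below 0 and 7 above, with a median of -0.12 against 0.00 over all genes, of which 49.5% were below 0. The adjusted threshold was passed by 4 genes, among them Rpl41, Rps28 and Rplp1, all lower (5.26% of the 76), when 12.2% of all genes passed, 6.72% lower and 5.46% higher. An unadjusted p below 0.05 was reached by 18 of the 76, all lower, when 12.7% of all genes were lower and 11.9% higher at that level. The called share of the 76 was below that of all genes, and every gene of the 76 at either threshold was lower.

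Rpl41, a very short protein of the 60S subunit (chr10:128548114-128549305, minus strand), had 120, 132, 124 and 116 CPM in early let-7d 1, let-7d 2, let-7e 1 and let-7e 2. The 8 late let-7 libraries ran from 148 to 205 CPM with a median of 176, and the controls, all late, had 238, 186, 205, 162 and 208 CPM. Every early library lay below every late library of the injected groups, as for 6.13% of all genes, and the fold change was -0.52 ± 0.10 SE (edgeR adjusted p = 0.00318). Rps28, a 40S protein at the mRNA exit channel (chr17:33819027-33824562, minus strand), had 65.4, 57.4, 58.7 and 53.2 CPM in the same early libraries and 64.1 to 91.4 CPM (median 76) in the late ones. Only let-7e 6 reached into the early range (-0.38 ± 0.08 SE, edgeR adjusted p = 0.00474).

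Rplp1, of the P stalk (chr9:61913284-61914542, minus strand), had 341, 375, 353 and 349 CPM early and 371 to 543 CPM (median 428) late (-0.29 ± 0.09 SE, edgeR adjusted p = 0.0355). The 1 late let-7 library inside the early range was again let-7e 6. The highest of the 7 values above 0 had no call, with Rps27 at 0.12, Rps13 at 0.08 and Rps15a at 0.08.

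**Figure D5:**
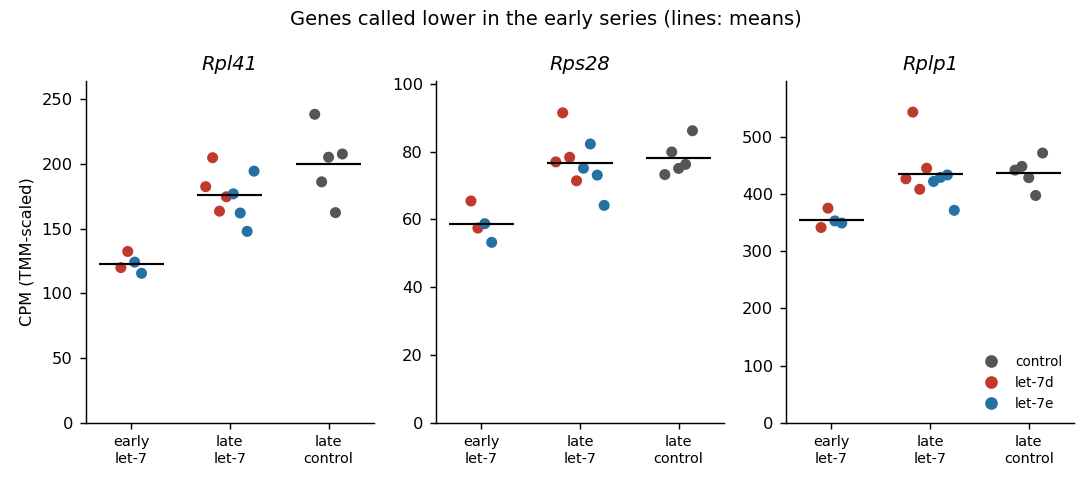
TMM-scaled CPM of Rpl41, Rps28 and Rplp1, called lower in the early series, for 4 early let-7, 8 late let-7 and 5 late control libraries (points coloured by group, lines are means, axes from 0). Rpl41 early values of 116 to 132 CPM lie below all late let-7 values, and for Rps28 and Rplp1 let-7e 6 alone falls inside the early range.

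The calls depended on how the libraries were compared. Rpl41 and Rps28 passed with each of the 17 libraries left out in turn. Rplp1 lost its call without let-7d 1, let-7d 2, let-7d 6, let-7e 1, let-7e 2, let-7e 3 or let-7e 5. With the length and GC trend of each library taken out, none of the 4 was called (Rpl41 -0.30, Rps28 -0.31), 3 other genes were (Rpl37a, Rpl39 and Rps20), and the calls over all genes went from 2005 to 445. Without let-7d 4 the median of the 76 was -0.05 and 11 genes had an unadjusted p below 0.05. That number was also 11 without let-7d 2, 10 without let-7e 2 and 12 without let-7d 1 or let-7e 5. The share of all genes at that level with these libraries left out is not given here. The difference between let-7d and let-7e in this early-late coefficient, tested as an interaction, gave 0 of the 76 at an unadjusted p below 0.05, when 1.85% of all genes reached it, and 0 adjusted calls in edgeR.

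Other lists moved with the series. The nuclear noncoding RNAs (Malat1, Neat1 and others), used as a sign of RNA quality, averaged 6.45 to 6.94 log2 CPM in the early libraries and 5.84 to 6.54 in the late let-7 libraries, with 5 of 6 above 0 and 2 called. Red cell transcripts ran from 4.07 to 4.89 early and 5.01 to 6.19 late, with 2 of 5 called lower, and endothelial markers from 6.31 to 6.76 early and 6.86 to 7.21 late, with 4 of 10 called lower. Their part in the ribosomal protein values was not tested, and what the identifier series stands for cannot be told from the labels.

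Called genes of the other translation lists went in both directions between the series. The lists held 9.52% called among other TOP transcripts, 18.5% among initiation factors, 23.8% among mTORC1 and TOP regulators, 13.5% among biogenesis genes and 2.6% among mitochondrial ribosome genes, on either side of the 12.2% of all genes. Of 21 other TOP transcripts, Eef2, the translocation factor (-0.52 ± 0.09 SE, edgeR adjusted p = 0.00118), and Eif3f (-0.40) were called lower. Among 27 initiation factors Eif4h (-0.41), Eif3b (-0.32) and Eif3d (-0.26) were called lower and Eif3a (0.36) and Eif2s3x (0.37) higher. Of 21 mTORC1 and TOP regulators the stress-induced inhibitor Sesn2 (-1.44), the mTORC1 component Akt1s1 (-0.63) and the eIF4E-binding Eif4ebp2 (-0.60) were called lower, and Larp4 (0.48) and Larp4b (0.28) higher. Larp1 (0.06), Myc (-0.32), Tpt1 (-0.04) and Eef1a1 (0.00) had no call. Of 37 biogenesis genes Taf1d (0.66), Ddx21 (0.28) and Gnl3 (0.26) were called higher and Fbl (-0.32) and Rrp9 (-0.36) lower, and of 77 mitochondrial ribosome genes Mrpl45 (-0.30) and Mrpl38 (-0.36) lower. Of the 8 ribosomal protein genes outside the naming rule 0 were called, with Fau at -0.25 (edgeR adjusted p = 0.093). With the length and GC trend taken out, Sesn2, Eif3f, Taf1d and Mrpl45 were still called among these genes.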

How the data were processed

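Whole eWAT RNA was sequenced on a NovaSeq, per the labels' protocols. The authors deposited whole-number read counts per Ensembl gene; STAR and GRCm38.p6 are named in the submitters' processing notes, and the counting tool and its treatment of reads with several matches are not given in the sources used here. A second table, named as RPKM, was not used. Symbols and lengths came from GENCODE M21 (GRCm38; 16438 identifiers matched), with the shortest principal transcript per gene, and promoters and microRNAs from RefSeq.

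Counts were scaled by TMM and tested with edgeR 4.0.16 in R 4.3.3 (quasi-likelihood, two-sided, terms for group and series, all 17 libraries). The p-values were adjusted over 16452 genes by Benjamini-Hochberg. filterByExpr removed 0 genes, and log2 CPM used a prior count of 2. DESeq2 1.42.0 and limma-voom 3.58.1 were alternatives. Scripts were tested on simulated data. The closest 2 libraries (let-7d 3 and let-7d 6) still differed 15.35 times beyond counting noise (chi-square per degree of freedom), so none was counted as a duplicate.

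The genes, lists and tests were chosen with earlier results of these data known. Genes named are the 3 of smallest unadjusted p in each direction per comparison, the 3 highest and lowest in level and in spread, a fixed set, and 2 of smallest p per list. Genes called under another setting, those called in early against late among the lists, and the start windows shown were picked after values were seen. Some named genes are not reported here.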

Additional observations from a re-analysis of the deposited data

Results flagged for a closer look

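Values within a group were set against Dixon's 95% criterion for a single far value, which chance meets in about 5% of groups of samples. Of 108 sets of values (the level, the share of counts and each named gene, by group), 11 were flagged, and 8 of these were high values of let-7d 4, which are not independent because the genes move together.

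In let-7d 4 the mean of the 76 genes was 7.446 log2 CPM, with the next let-7d library at 7.119. The same library was far above the others of its group for Rpl13 (7.991, next 7.748), Rpl22 (7.699, next 7.446), Rpl31 (5.264, next 4.987), Rpl35a (7.135, next 6.856), Rps18 (8.051, next 7.721), Rps27a (6.89, next 6.591) and Rps6 (6.722, next 6.434), all in log2 CPM. Among the controls, Rps26 stood at 7.75 log2 CPM in control 3, the library with vas deferens transcripts, with the next control at 7.154. With let-7e, Rpl11 was high in let-7e 1 (6.895, next 6.582) and Rpl35a low in let-7e 6 (6.356, next 6.643).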

How the results depend on the processing

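The median fold change of the 76 genes kept its sign in all 4 comparisons under every alternative run, but not its size. It ran from 0.014 (without let-7d 4) to 0.11 for let-7d against control, from -0.14 to -0.0097 (length and GC taken out, with the block) for let-7e against control, from -0.18 to -0.045 (without let-7d 4, let-7e 2 and let-7e 6) for let-7e against let-7d and from -0.21 (block) to -0.036 (without the same 3 libraries) for early against late. In the 3 group comparisons, limma-voom called 0 genes, and leaving out 1 library in turn gave 0 to 0. DESeq2's Wald test called 10 genes for let-7d against control, 15 for let-7e against control and 14 for let-7e against let-7d, none of the 76. Early against late gave 3513 calls with limma-voom, 445 with the length and GC trend taken out, 1174 without let-7d 4, let-7e 2 and let-7e 6, and 1263 (without let-7d 1) to 2326 with 1 library left out.

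Whether replicate numbers pair the libraries was not settled. Of 16 same-number pairs, 6 correlated above 0.1 (range -0.418 to 0.539). The values were deviations from group means, so pairs of let-7 libraries also share their series. Pairs of different numbers were not compared, so this check cannot decide on pairing. With the replicate number as a block, early against late gave 44 calls (0 with length and GC taken out as well), none of the 76, and let-7d against control gave 1 with the block and no series term. Within a replicate number the let-7 libraries are all early or all late. The blocked early-late coefficient therefore rests wholly on comparison with the controls, which are all late. It sets let-7 against control in replicates 1 and 2 against the same difference in replicates 3, 4 and 6. That is not the same quantity as in the main fit. The block changed no call in the other group comparisons.

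Signs of single genes turned as follows. Rps26 in let-7d against control was 0.026 with limma-voom, 0.14 without the 4 libraries holding organ or epithelial transcripts and ran from -0.17 (without let-7d 4) to 0.079 (without control 3) with 1 library left out. In let-7e against control, Rplp0 was -0.023 and Rpl13 -0.0083 with the block and no series term, and Rpl13a -0.0090 and Rplp0 -0.014 without the series term. In early against late, Rps13 was -0.12 with the block and -0.032 with length and GC taken out and the block, and Rps15a was -0.030 and -0.0016 with length and GC taken out, without and with the block. The cause was not tested.

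Depth was not limiting for these genes, whose mean was at least 6.14 CPM in libraries of at least 12717365 counts, but sequence shared with other genes limits their absolute levels.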
